A study of Homo sapiens with 12 samples.

Results

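Iron uptake, storage and sensing were read here from 10 genes of 25369 in the count table, chosen by symbol because each has a defined step in how a cell handles iron. TF and TFRC encode transferrin and its receptor, STEAP3 an endosomal ferrireductase, and SLC11A2 the divalent metal transporter DMT1. FTH1 and FTL encode the heavy and light chains of ferritin, and NCOA4 the receptor that delivers ferritin to autophagy. SLC40A1 encodes ferroportin, the iron exporter, and IREB2 and ACO1 encode the iron regulatory proteins IRP2 and IRP1. All 10 symbols had a row, and each was followed through 3 cancer cell lines at both oxygen levels.

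The libraries came from poly(A)+ RNA of RKO cells (colon carcinoma), A549 cells and H460 cells (both lung cancer), kept in normoxia or moved to 1% O2 for 24 h. Each of the 6 groups of line and oxygen had 2 replicates, 12 libraries in all, and no group carried an engineered allele. RKO and A549 grew in DMEM and H460 in RPMI, each with 10% fetal bovine serum, so that medium and line cannot be told apart for H460. Every line is a culture derived from a single tumour. The study describes its replicates as independent biological ones, and p-values measure the spread between these libraries of a line.

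Cells take up iron as transferrin bound to its receptor, reduce it in the endosome and pass it to the cytosol through DMT1, where it is used, stored inside ferritin or exported by ferroportin. IRP1 and IRP2 bind a short hairpin, the iron responsive element, when iron is scarce. Bound in the 5′ UTR of ferritin and ferroportin mRNA it blocks translation, and bound in the 3′ UTR of TFRC mRNA it protects the mRNA from decay, so that mRNA counts see the second kind of control directly and the first kind not at all. IRP2 is removed by an iron- and oxygen-dependent ubiquitin ligase, IRP1 switches between an aconitase with an iron-sulfur cluster and an RNA-binding form, and TFRC is a known target of the hypoxia inducible factors.

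The hairpins are shown first because they divide the 10 genes by the way their mRNA is read. Transcripts of GENCODE v44 on GRCh37 were searched in their UTRs for a C, 5 bases, the 6-base loop CAGTGN with the last base not G, and 5 bases that can pair with the first 5, wobble pairs included. In the sequences below, 5′ to 3′ with T for U, the capitals mark the loop.
FTH1 (5′ UTR, chr11:61735047-61735073, minus strand): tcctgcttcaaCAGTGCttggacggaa
FTL (5′ UTR, chr19:49468593-49468619, plus strand): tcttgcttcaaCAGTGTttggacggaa
SLC40A1 (5′ UTR, chr2:190445388-190445414, minus strand): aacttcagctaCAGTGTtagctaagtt
TFRC (3′ UTR, chr3:195777851-195777877, minus strand): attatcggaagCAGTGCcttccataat
TFRC (3′ UTR, chr3:195777447-195777473, minus strand): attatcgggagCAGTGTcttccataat
TFRC (3′ UTR, chr3:195777382-195777408, minus strand): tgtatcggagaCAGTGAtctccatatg
TFRC (3′ UTR, chr3:195777335-195777361, minus strand): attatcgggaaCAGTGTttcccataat
SLC11A2 (3′ UTR, chr12:51382053-51382079, minus strand): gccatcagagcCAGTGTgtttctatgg

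With all 5 pairs, a 5′ UTR match was present in 24 of 19201 genes with a 5′ UTR (0.125%), 3 of them FTH1, FTL and SLC40A1. In the 3′ UTR such a match was present in 110 of 19215 genes (0.572%). TFRC held 4 of these hairpins. A match in TF lay in a single long isoform, beyond the end of the TF gene in the count table, and is not counted as part of what was measured. With 4 of 5 pairs the 3′ UTR pattern occurred in 709 genes (3.69%), among them SLC11A2, IREB2 and ACO1 (the last also beyond the end of the counted gene), and the 5′ UTR pattern in 172 genes (0.896%). The SLC11A2 hairpin was in 4 of its annotated isoforms, and the counts pool all isoforms. No match was found for STEAP3 or NCOA4, which says only that these letters are not in their annotated UTRs.

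Promoters were read from RefSeq windows on GRCh38.p14 that reach from 250 bases before to 50 bases after each annotated start, and windows were available for 9 of the 10 genes, all but FTH1. The core of a hypoxia response element, ACGTG on either strand, was present in TFRC, TF and FTL and in 21.4% of all 35116 windows. The alternative core GCGTG was present in SLC11A2, FTL, IREB2 and ACO1 and in 36.5% of all windows. Presence counts a match in any window of a gene, while the shares are per window. SLC11A2 had 4 windows, TF, NCOA4 and IREB2 2 each, and the other genes with windows 1. The TFRC match is shown because TFRC was the gene with opposite calls between lines. In capitals, it begins 88 bases before the start.
TFRC (chr3:196082161-196082190, GRCh38.p14, minus strand): cctcgcgagcgtACGTGcctcaggaagtga

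Counted reads per library ranged from 27350424 to 41757584. A gene was tested in a line when it passed 0.5 CPM in at least 2 of the line's 4 libraries, and called when edgeR gave an adjusted p under 0.1 and a fold change over 1.5. RNA of known hypoxia targets moved as a check of the labels, CA9, PDK1 and SLC2A1 being called higher in all 3 lines and ANKRD37 in RKO and H460 (A549 log2 fold change 1.86, adjusted p = 0.111 with edgeR). The tissue labels had less support. Of 5 colon markers, 4 were under 0.5 CPM in RKO, with CDX2 the exception. CDH17, a colon marker at 0 CPM in normoxic RKO, was at 2.39 CPM in normoxic and 1.83 CPM in hypoxic A549. All 5 lung markers were under 0.5 CPM in A549 and in normoxic H460, with NKX2-1 at 3.51 CPM in hypoxic H460. KRT8 and KRT18 were present in every line, KRT18 falling in RKO from 177 to 89.1 CPM (log2 -1.05). The other epithelial markers had gaps. CDH1 was under 0.5 CPM in RKO and in normoxic H460, and EPCAM was under it in H460 at both oxygen levels. KRT19 was at only 1.07 CPM in normoxic RKO and 0.50 CPM in normoxic A549. The summed level of 5 erythroid markers stayed between 0.00 and 0.918 CPM in all 12 libraries. Values in H460 depended most on scaling. With library size in place of TMM, the median shift of log2 fold changes was -0.35 for H460, -0.09 for A549 and 0.08 for RKO, and all changes here are relative to TMM.

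Tests covered 9 iron genes in at least 1 line, and calls in hypoxia are given per line beside the share of all genes called there. In RKO, TFRC was called higher, and it was the 1 gene called among 8 tested, where 18.8% of all 12817 genes tested were called higher and 15.1% lower. In A549, STEAP3 was called higher and was the 1 gene called among 9, against a background of 2.22% higher and 0.456% lower among 14251 genes. In H460, FTH1, STEAP3 and NCOA4 were called higher and TFRC and SLC40A1 lower, 5 of 9 genes, where 24.6% of 14080 genes were called higher and 27.3% lower. The shares of members called in H460 (3 higher and 2 lower of 9) were thus near that line's background. No iron gene was called lower in RKO or A549 by edgeR, and 2 (STEAP3 and IREB2) were lower at an unadjusted p under 0.05 in RKO and 0 in A549. DESeq2 and limma also gave 0 there. The members tested had a median log2 fold change of 0.14 (RKO), -0.04 (A549) and 0.48 (H460), beside 0.01, -0.01 and -0.04 over all genes tested.

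**Figure D1:**
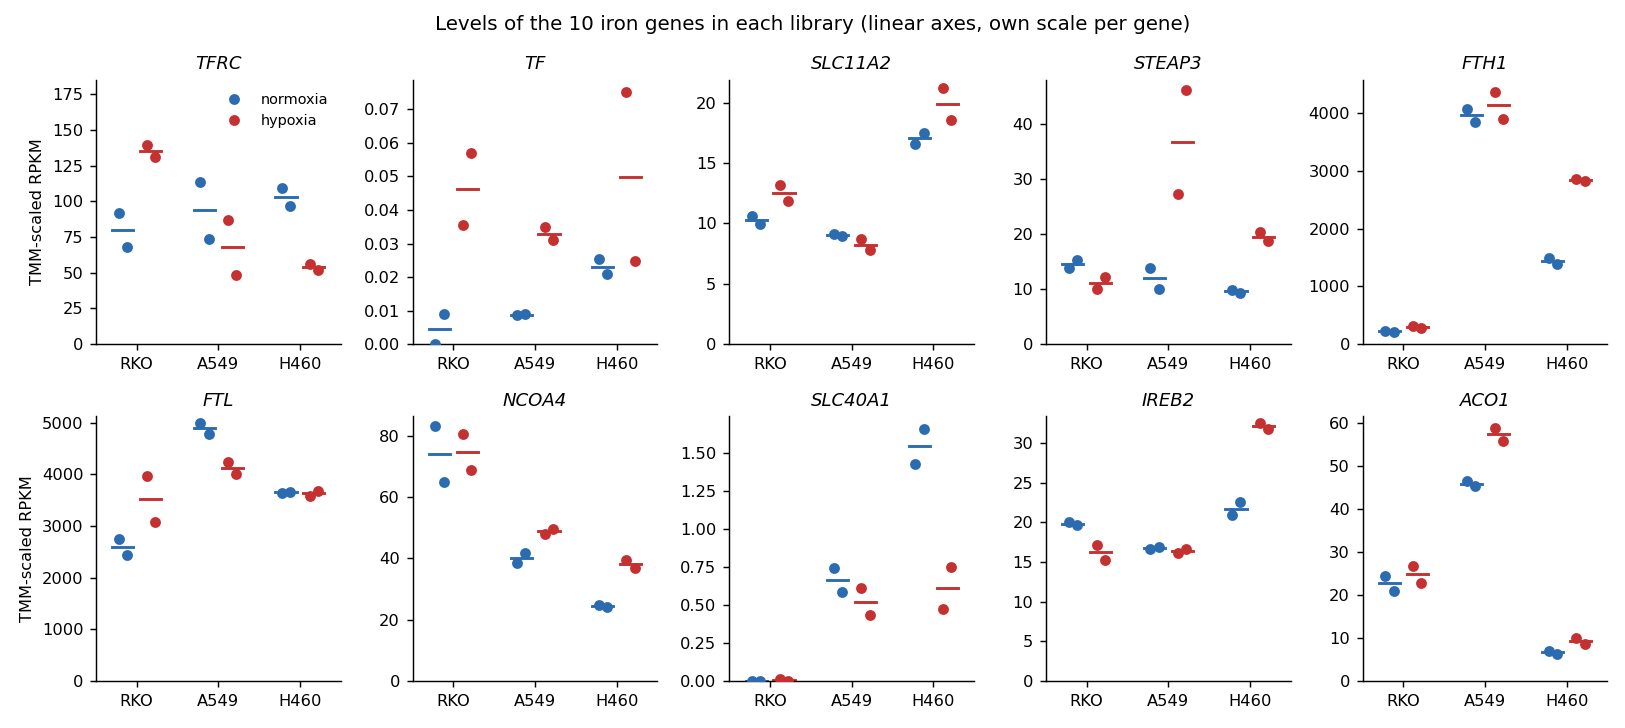
Level of each of the 10 iron genes in the 12 libraries, in TMM-scaled RPKM on linear axes with a scale for each gene; points are libraries (2 per group), bars are group means, blue is normoxia and red hypoxia. TFRC in hypoxia sits above normoxia in RKO (131 and 139.5 against 68.1 and 91.5) and below it in H460 (51.8 and 56.3 against 96.7 and 109.6).

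Levels are given as RPKM rescaled with the TMM factors of all 12 libraries, a unit per length of mRNA in which genes can be set side by side. Ferritin led the list everywhere. FTL was the most abundant iron gene in each group by its mean. By this TMM-scaled group mean it ranked between 1 and 6 among all 25369 genes. FTH1 ranked between 2 and 23 in A549 and H460 and 138 to 206 in RKO. Both have many close copies elsewhere in the genome, and reads that matched several places were filtered upstream, so their levels carry that limit. Ferritin, FTH1 and FTL together, took between 0.260% (RKO normoxia, replicate 2) and 0.971% (A549 normoxia, replicate 1) of counted reads.

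Below ferritin the order was TFRC, then NCOA4 or ACO1, with IREB2, STEAP3 and SLC11A2 lower, and SLC40A1 and TF at the end. In normoxic RKO, TFRC (79.8 ± 16.6 RPKM, mean ± SD, n = 2) and NCOA4 (74.2 ± 13.1) overlapped between libraries, and the other neighbours among the 8 detected genes did not. In hypoxic A549, FTL and FTH1 overlapped, as did TFRC and ACO1. SLC11A2 and STEAP3 overlapped in hypoxic RKO and in hypoxic H460. In H460, ACO1 was the lowest of the genes with more than trace levels, at 6.63 ± 0.45 RPKM in normoxia, whereas in A549 it took the fourth place, at 46 ± 0.82.

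TFRC, the receptor that brings transferrin-bound iron into the cell and the gene with calls in opposite directions, was called higher in RKO and lower in H460. RKO normoxia gave 91.5 and 68.1 RPKM and RKO hypoxia 139.5 and 131. The groups did not overlap, and TFRC rose 1.63-fold (log2 fold change 0.70 ± 0.18 SE, adjusted p = 0.0113 with edgeR). Leaving out RKO normoxia replicate 2, the lower of that pair, brought the log2 fold change to 0.50 and ended the call. As these are bulk samples, more cells with the mRNA and more mRNA per cell cannot be told apart, nor can fewer and less where a gene fell.

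In H460 the same receptor fell. Normoxia libraries had 109.6 and 96.7 RPKM and hypoxia libraries 56.3 and 51.8, again with no overlap. The fold change was 1.92 downward (log2 -0.94 ± 0.10, adjusted p = 4.02e-06 with edgeR), and it was -1.30 with library size scaling, so that the direction did not rest on TMM. Some marker genes of the lists also moved in H460, named here after their values were seen. NKX2-1 had 2 and 0 counts in normoxia and 87 and 98 in hypoxia, KRT19 rose from 601 to 1415 CPM (log2 1.22 ± 0.10), and CD14 fell from 11.8 to 5.46 CPM (log2 -1.12 ± 0.16), while PTPRC stayed under 0.5 CPM. Their part in the H460 results was not tested. A549 lay between, with 113 and 73.8 RPKM in normoxia and 86.7 and 48.7 in hypoxia. These groups overlapped, and the log2 fold change of -0.48 ± 0.29 did not pass (adjusted p = 0.454). Its value moved from -0.12 without A549 hypoxia replicate 2 to -0.95 without A549 hypoxia replicate 1, and the latter was called lower.

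The difference itself was tested as an interaction of line and oxygen in a fit of all 12 libraries, called at an adjusted p under 0.1. The TFRC response in RKO was higher than in H460 by 1.69 ± 0.35 on the log2 scale (adjusted p = 0.00269 with edgeR) and higher than in A549 by 1.22 ± 0.34 (adjusted p = 0.0448). The second difference was no longer called without RKO normoxia replicate 2 (1.03), RKO hypoxia replicate 1 (1.19) or A549 normoxia replicate 1 (0.88). A549 and H460 differed by 0.46 ± 0.34, which did not pass. That value rested on single A549 libraries, being 0.81 and called without A549 normoxia replicate 1 or without A549 hypoxia replicate 2, 0.19 without A549 normoxia replicate 2 and 0.0055 without A549 hypoxia replicate 1. In normoxia itself TFRC was called different in 0 of 3 pairs of lines by edgeR, with 0 at an unadjusted p under 0.05 and means between 79.8 and 103 RPKM.

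STEAP3 reduces ferric iron in the endosome so that DMT1 can carry it. In A549 it measured 13.9 and 10.1 RPKM in normoxia and 27.4 and 46.3 in hypoxia. Both hypoxia libraries were above both normoxia libraries, although they differed from each other by more than the normoxia pair did. The rise was 3.05-fold (log2 1.61 ± 0.27, adjusted p = 0.0251 with edgeR), and with limma on log2(RPKM + 1) it was 1.42 and not called. In the same libraries the sum of 5 fibroblast markers was 47.8 to 84.5 CPM in A549 normoxia and 132 to 429 CPM in A549 hypoxia. Nearly all of it was COL1A1, with COL1A2, COL3A1 and DCN under 0.5 CPM throughout. COL1A1 was also called higher in RKO (log2 2.15 ± 0.40), and the study lists it among its acute response genes. Its part in the STEAP3 result was not tested.

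In H460, STEAP3 went from 9.82 and 9.38 RPKM to 20.4 and 18.7, with no overlap. This was a rise of 2.02-fold (log2 1.02 ± 0.09, adjusted p = 1.08e-06 with edgeR), and 0.66 and still called with library size scaling. RKO ran the other way in its values, with 13.9 and 15.4 RPKM in normoxia and 10.0 and 12.2 in hypoxia. There the log2 fold change of -0.45 ± 0.17 had an adjusted p of 0.0546 with edgeR but a fold under 1.5, so it was not called. Without RKO hypoxia replicate 2 it was -0.61 and called lower.

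RKO and the lung lines differed in this response beyond the replicate error. The STEAP3 effect was lower in RKO than in A549 by 2.02 ± 0.31 (log2 difference -2.02, adjusted p = 0.00229 with edgeR) and lower than in H460 (difference -1.43 ± 0.31, adjusted p = 0.00390). Both were called under every alternative run. A549 and H460 differed by 0.59 ± 0.31, which did not pass, but 6 of 19 alternatives called it. It was 0.84 without A549 normoxia replicate 1 and 0.93 without A549 hypoxia replicate 1, both called, and 0.38 and 0.15 without the other library of each pair. In normoxia STEAP3 was 1.52-fold higher in RKO than in H460 (log2 0.60 ± 0.22, adjusted p = 0.0250 with edgeR), a call that 5 of 18 alternatives lost.

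**Figure D2:**
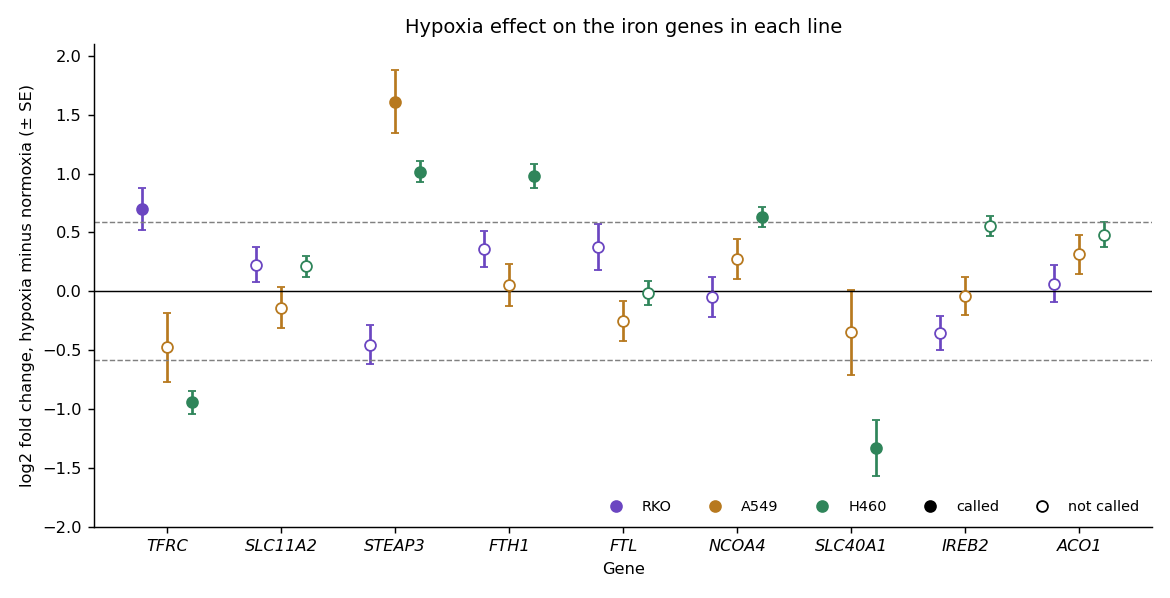
Log2 fold change of hypoxia over normoxia for the 9 iron genes tested in at least 1 line, with standard errors from edgeR; filled points were called, dashed lines mark a fold of 1.5, and colours are lines. TFRC is called above 0 in RKO (0.70) and below 0 in H460 (-0.94), and STEAP3 is called above 0 in A549 (1.61) and H460 (1.02).

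SLC11A2 encodes DMT1, which moves ferrous iron out of the endosome and, in other isoforms, across the cell surface. RKO gave 10.6 and 9.96 RPKM in normoxia and 13.2 and 11.9 in hypoxia, A549 9.13 and 8.94 against 8.68 and 7.80, and H460 16.6 and 17.5 against 21.2 and 18.6. The conditions did not overlap in any line, but the differences were small and in 0 of 3 lines called by edgeR, DESeq2 or limma. The log2 fold changes were 0.22 in RKO, -0.14 in A549 and 0.21 ± 0.09 in H460 (adjusted p = 0.0533 with edgeR), the last of which became -0.14 with library size scaling. H460 had more SLC11A2 mRNA in normoxia than RKO (1.67-fold) and A549 (1.92-fold).

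TF, the carrier that liver secretes, was at the edge of detection. Its counts were 0 and 1 in RKO normoxia, 4 and 6 in RKO hypoxia, 1 and 1 then 4 and 3 in A549, and 2 and 2 then 5 and 2 in H460. No group passed the minimum for a test. Hypoxia counts were above normoxia counts in RKO and A549 and overlapped in H460, at levels of at most 0.0751 RPKM, and no fold is given.

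FTH1, the ferritin chain with ferroxidase activity, rose in H460. It measured 1483 and 1384 RPKM in normoxia and 2862 and 2827 in hypoxia, with no overlap. The rise was 1.97-fold (log2 0.98 ± 0.10, adjusted p = 4.48e-06 with edgeR), and 0.63 and still called with library size scaling. In RKO, normoxia gave 224 and 219 RPKM and hypoxia 319 and 273, a log2 fold change of 0.36 ± 0.15 with an adjusted p of 0.0900 and a fold under 1.5, so it was not called. A549 libraries overlapped, with 4076 and 3834 RPKM against 4366 and 3891, and the log2 fold change of 0.05 ± 0.18 took the opposite sign with library size scaling.

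The FTH1 response in H460 exceeded that in A549 (A549 minus H460 -0.93 ± 0.21, adjusted p = 0.00511 with edgeR), a difference called under every alternative run. It also exceeded that in RKO (RKO minus H460 -0.58 ± 0.21, adjusted p = 0.0491), but 8 of 19 alternatives lost this call, among them library size scaling at -0.19 and the omission of RKO hypoxia replicate 2 at -0.45. The levels that hypoxia acted on were far apart. In normoxia FTH1 was 17.7-fold lower in RKO than in A549 (log2 -4.14 ± 0.17) and 6.51-fold lower than in H460 (log2 -2.70 ± 0.16), and A549 exceeded H460 by 2.72-fold (log2 1.44 ± 0.15). All 3 were called, with log2 values between -4.19 and -4.10, -2.76 and -2.66, and 1.39 and 1.49 over the alternatives.

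FTL, the chain that helps iron nucleate inside the shell, was not called in any line. RKO went from 2749 and 2447 RPKM to 3973 and 3078, A549 from 4996 and 4793 to 4248 and 4009, and H460 from 3641 and 3662 to 3586 and 3688. Conditions were apart in RKO and A549 and overlapped in H460. Log2 fold changes were 0.38 ± 0.19 (adjusted p = 0.148), -0.25 ± 0.17 (0.501) and -0.02 ± 0.10 (0.897), none called by edgeR, and the H460 value was -0.37 with library size scaling and 0.02 with RLE factors. RKO and A549 differed in this response by 0.68 ± 0.22 (adjusted p = 0.0746 with edgeR), a call that ended in 11 of the 12 fits that left out a library, all but the one without RKO hypoxia replicate 2. In normoxia FTL was 1.86-fold lower in RKO than in A549, a gap much smaller than that of FTH1.

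The ratio of the chains followed from these values and does not depend on scaling between libraries. FTH1 to FTL, in deposited RPKM, was 0.0853 ± 0.0056 in RKO normoxia and 0.0844 ± 0.0059 in RKO hypoxia (SD, n = 2), so that the chains kept their proportion within the replicate spread. In H460 it went from 0.407 and 0.378 to 0.798 and 0.767, and in A549 from 0.816 and 0.800 to 1.03 and 0.970. Hypoxia libraries were above normoxia libraries in both lung lines. The ratio of TFRC to FTH1, uptake to storage, was 0.409 and 0.311 in RKO normoxia and 0.438 and 0.481 in RKO hypoxia. It fell within H460 from a mean of 0.0719 ± 0.0029 to 0.0190 ± 0.00095 and overlapped in A549, at 0.0235 ± 0.0060 and 0.0162 ± 0.0052. With 2 libraries against 2 no exact permutation test can reach 0.05, and the ratios are given without one.

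**Figure D3:**
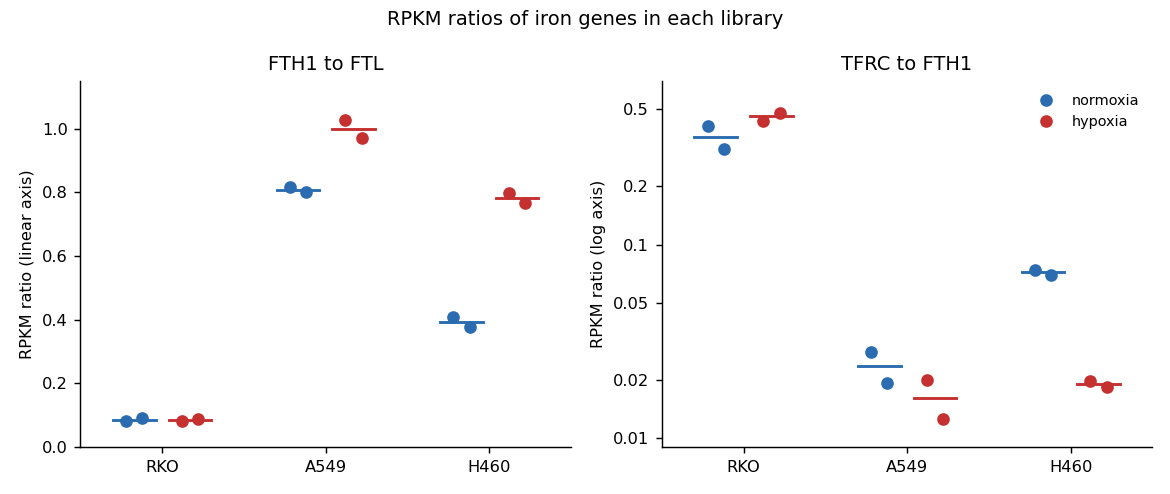
RPKM ratio of FTH1 to FTL (left, linear axis) and of TFRC to FTH1 (right, log axis) in each of the 12 libraries; bars are group means of 2 libraries, blue normoxia and red hypoxia. FTH1 to FTL lies between 0.0802 and 0.0893 in all RKO libraries and goes from 0.393 to 0.782 in H460, while TFRC to FTH1 goes from 0.0719 to 0.0190 there.

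NCOA4 binds ferritin and carries it to the lysosome, where its iron is released. In H460 it went from 24.9 and 24.1 RPKM to 39.6 and 36.9, a rise of 1.55-fold with no overlap (log2 0.63 ± 0.08, adjusted p = 3.30e-05 with edgeR). This is close to the fold limit, and 5 of 13 alternatives lost the call, with a lowest value of 0.27. It was 0.28 and no longer called with library size scaling, and 0.57 and not called without H460 normoxia replicate 2. A549 had 38.5 and 41.9 RPKM in normoxia and 48.2 and 49.5 in hypoxia, apart but not called (log2 0.27 ± 0.17). RKO overlapped, at 83.4 and 64.9 against 80.8 and 68.9.

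The NCOA4 response was lower in RKO than in H460 (difference -0.64 ± 0.20, adjusted p = 0.0301 with edgeR), which was lost with library size scaling at -0.24 and without RKO normoxia replicate 1 at -0.43. Its normoxic level descended from RKO to A549 to H460. RKO exceeded A549 by 1.87-fold (log2 0.90 ± 0.14) and H460 by 3.02-fold (log2 1.59 ± 0.15), and A549 exceeded H460 by 1.62-fold (log2 0.69 ± 0.14). All 3 pairs were called, in the order opposite to that of FTH1 for RKO against the lung lines. NCOA4 overlaps TIMM23B on the same strand in the gene table, and reads in shared exons were ambiguous for counting.

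SLC40A1, ferroportin, is the exit for cellular iron. RKO had 0 counts in both normoxia libraries and 2 and 0 in hypoxia, and its hypoxia effect was not tested in the fit of that line. With a floor of 3 counts over the RKO normoxia group, it was at least 57.8-fold higher in normoxic A549 and at least 135-fold higher in normoxic H460. Even in those lines the level was low, and A549 gave 0.746 and 0.584 RPKM in normoxia and 0.615 and 0.432 in hypoxia, which overlapped (104, 79, 85 and 50 counts). H460 fell from 1.43 and 1.66 RPKM to 0.475 and 0.749, from 136 and 191 counts to 38 and 73. The groups were apart and the decrease was 2.51-fold (log2 -1.33 ± 0.24, adjusted p = 0.000346 with edgeR), called in all 13 alternatives, with values between -1.70 and -0.81. A549 and H460 differed in response by 0.99 ± 0.51, which did not pass (adjusted p = 0.169), and in normoxia H460 was 2.36-fold above A549 (adjusted p = 0.00815).

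The genes of the iron regulatory proteins moved by less than the fold limit. IREB2 in H460 went from 20.9 and 22.6 RPKM to 32.5 and 31.9, apart from each other, with a log2 fold change of 0.56 ± 0.09 (adjusted p = 0.000108 with edgeR) that was just under a fold of 1.5. DESeq2 and RLE factors gave 0.59 and called it, while library size scaling gave 0.20. In RKO it went from 20.1 and 19.6 to 17.2 and 15.3 (log2 -0.35 ± 0.15, adjusted p = 0.0790), and in A549 the libraries overlapped, between 16.2 and 16.9 RPKM. The IREB2 response differed between H460 and both other lines, by -0.86 ± 0.17 for RKO minus H460 (adjusted p = 0.00206) and -0.60 ± 0.17 for A549 minus H460 (adjusted p = 0.0187). The first was called under every alternative and the second lost its call with library size scaling at -0.33. Its normoxic level was called different in 0 of 3 pairs of lines by edgeR under the fold limit, with 2 pairs at an unadjusted p under 0.05.

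ACO1, which doubles as cytosolic aconitase, had its largest differences between lines and not between oxygen levels. In A549 it measured 46.6 and 45.4 RPKM in normoxia and 59.0 and 55.9 in hypoxia, in RKO 24.5 and 21.0 against 26.9 and 22.8, and in H460 6.94 and 6.31 against 9.92 and 8.71. The RKO groups overlapped and the others did not. The log2 fold changes were 0.31 ± 0.17 in A549 (adjusted p = 0.384), 0.06 ± 0.16 in RKO and 0.48 ± 0.11 in H460 (adjusted p = 0.00164 with edgeR, fold under 1.5), and none was called. Normoxic A549 had 2.00-fold the ACO1 level of RKO (log2 of RKO minus A549 -1.0 ± 0.14) and 6.84-fold that of H460 (log2 2.77 ± 0.15), and RKO had 3.42-fold that of H460 (log2 1.77 ± 0.14), all called.

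Over the members, the hypoxia response was called different between RKO and A549 for 3 of 9 genes (TFRC, STEAP3 and FTL), where 14.6% of 15595 genes were. Between RKO and H460 it was 5 of 9 (TFRC, STEAP3, FTH1, NCOA4 and IREB2) against 37.6%, and between A549 and H460 2 of 9 (FTH1 and IREB2) against 36.0%. In normoxia 5 of 9 members differed between RKO and A549, 6 of 9 between RKO and H460 and 5 of 9 between A549 and H460, where 60.2%, 61.9% and 52.1% of all genes did. These comparisons share libraries. The 9 genes include SLC40A1, which had 0 counts in RKO normoxia and was among the normoxia calls in both RKO pairs. Its response differences in those pairs, not called, had standard errors of 1.93 (RKO and A549) and 2.01 (RKO and H460). The members' counts between lines in normoxia were near the background share in each pair.

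To place the 10 genes among the rest of iron metabolism, 92 further genes were read in 5 lists, of iron transport and storage, hepcidin and BMP signalling, heme synthesis and transport, iron-sulfur cluster assembly, and other mRNAs with a reported iron responsive element. Of those tested, 12 were called higher and 16 lower of 76 in RKO, 2 higher and 0 lower of 82 in A549, and 15 higher and 25 lower of 80 in H460. These counts, and those of the lists below, stand beside background shares over all genes of 18.8% higher and 15.1% lower (RKO), 2.22% and 0.456% (A549), and 24.6% and 27.3% (H460). In A549, 8 were lower at an unadjusted p under 0.05 with edgeR, and DESeq2 called 7 higher and 1 lower and limma 1 higher and 0 lower. Without A549 hypoxia replicate 1 the A549 counts were 7 higher and 8 lower, and without A549 hypoxia replicate 2 the count of higher genes was 1. Over the 5 lists the median log2 fold change was -0.20 for RKO, -0.07 for A549 and -0.20 for H460, beside 0.01, -0.01 and -0.04 over all genes tested.

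Heme synthesis and transport was the list with the lowest median in H460 (-0.85), where 2 of 15 genes were called higher and 9 lower, against 2 and 3 of 16 in RKO; over all genes the H460 shares were 24.6% and 27.3% and the median -0.04. FECH, which inserts iron into protoporphyrin to form heme, fell in H460 from 9.80 and 10.2 RPKM to 1.97 and 2.37 (log2 -2.21 ± 0.11, adjusted p = 1.25e-08 with edgeR). SLC48A1, a heme transporter of the endosome and lysosome, fell there from 63.9 and 68.8 RPKM to 16 and 15.3 (log2 -2.09 ± 0.09). In RKO it rose from 5.14 and 5.64 to 8.27 and 9.75 (log2 0.68 ± 0.19, adjusted p = 0.0153).

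Iron-sulfur assembly had 1 gene called higher and 10 lower of 25 in RKO (median -0.40) and 3 higher and 7 lower of 25 in H460 (median -0.31). Background shares lower were 15.1% in RKO and 27.3% in H460, the latter close to that of the list. GLRX3, a cytosolic monothiol glutaredoxin, fell in RKO from 131 and 107 RPKM to 59.1 and 56.8 (log2 -1.10 ± 0.16). NUBPL, needed for the iron-sulfur clusters of respiratory complex I, fell in RKO from 2.91 and 2.68 RPKM to 1.5 and 1.26 (log2 -1.08 ± 0.24), and CIAPIN1, of the cytosolic assembly machinery, from 37.4 and 36.0 to 17.7 and 22.4 (log2 -0.93 ± 0.17). FDX1L, the mitochondrial ferredoxin now named FDX2, fell in H460 from 13.5 and 12.4 RPKM to 2.64 and 4.17 (log2 -1.92 ± 0.20). It was not called in A549 or RKO.

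Iron transport and storage had 5 called higher and 2 lower of 20 in RKO, 2 and 0 of 24 in A549, and 6 and 6 of 23 in H460, the H460 counts being near the background shares of 24.6% and 27.3%. CP, the ferroxidase ceruloplasmin that works beside ferroportin, was the 1 gene of the 92 called in the same direction in all 3 lines. Few genes could meet that rule, since A549 called only 2.22% of all genes tested higher and 0.456% lower. The share of all genes that met it was not computed. CP rose in A549 from 3.44 and 3.21 RPKM to 15.3 and 25 (log2 2.59 ± 0.25, adjusted p = 0.00441 with edgeR) and in H460 from 1.52 and 0.831 to 4.96 and 6.87 (log2 2.34 ± 0.23, adjusted p = 2.84e-06). In RKO it went from 5 counts in the normoxia group to 390 in the hypoxia group, a ratio of 77.4 with an exact 95% interval of 32.9 to 239.8 that covers counting error only.

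Other genes of this list were called in 1 or 2 lines. SLC25A37, mitoferrin 1, rose in H460 from 69.6 and 68.7 RPKM to 292 and 247 (log2 1.95 ± 0.10), and SLC22A17, a lipocalin receptor, from 1.98 and 1.19 to 5.11 and 4.52 (log2 1.61 ± 0.21). HMOX1, which frees iron from heme, rose in RKO from 33.3 and 30.7 RPKM to 83.1 and 137 (log2 1.72 ± 0.22) and fell in H460 from 31.0 and 29.0 to 17.5 and 17 (log2 -0.81 ± 0.09). MFI2, melanotransferrin, rose in RKO from 7.40 and 9.27 RPKM to 23.6 and 27.6 (log2 1.56 ± 0.17). CYBRD1, a ferric reductase, rose in A549 from 15.9 and 15.2 to 24.4 and 26.7 (log2 0.71 ± 0.17, adjusted p = 0.0870 with edgeR), a call that 7 of 13 alternatives lost.

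Hepcidin and BMP signalling had 3 called higher and 1 lower of 9 in RKO, 0 of 11 in A549, and 3 higher and 2 lower of 11 in H460, counts too small to set apart from the background shares given above. FAM132B, the gene of erythroferrone, which opposes BMP ligands, was called in opposite directions. It rose in RKO from 3.13 and 3.29 RPKM to 11.1 and 11.6 (log2 1.75 ± 0.18) and fell in H460 from 3.17 and 3.85 to 0.938 and 1.09 (log2 -1.80 ± 0.18). SMAD1, which carries the BMP signal, fell in RKO (log2 -0.94 ± 0.19) and in H460 (log2 -1.50 ± 0.14).

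Among the 7 other mRNAs with a reported element, 1 of 6 was called higher in RKO, 0 of 6 in A549, and 1 higher and 1 lower of 6 in H460, again too few to set apart from the background shares. EPAS1, the gene of HIF2A, was the higher one in both. It went from 1.83 and 1.37 RPKM to 4.97 and 3.22 in RKO (log2 1.29 ± 0.25) and from 22.7 and 20.6 to 60.9 and 56.0 in H460 (log2 1.42 ± 0.09), while A549 overlapped at a higher level, between 57.4 and 90.6 RPKM.

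**Figure D4:**
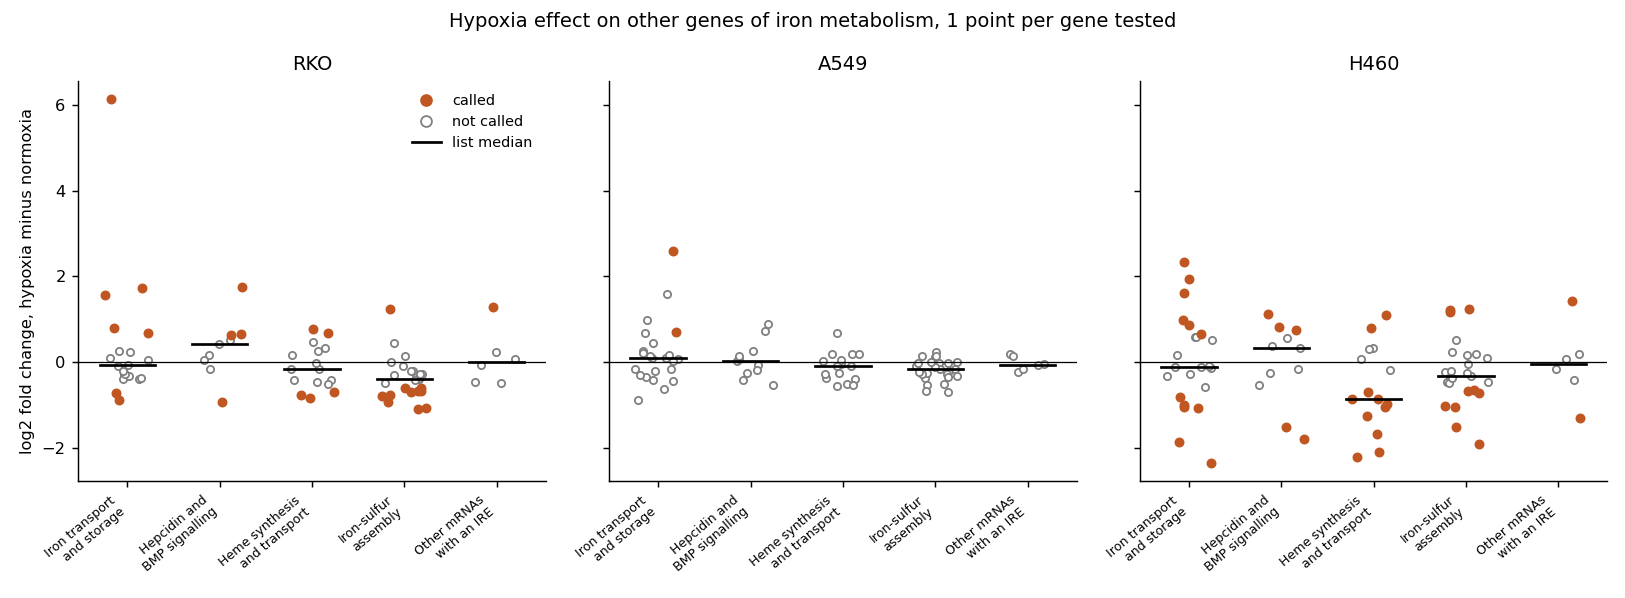
Log2 fold change of hypoxia over normoxia for the other iron metabolism genes tested in each line, 1 point per gene, in 5 lists; filled points were called, open points were not, and black bars are list medians. In A549 2 genes are called, against 28 in RKO and 40 in H460, and the H460 heme list has a median of -0.85.

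The genes whose levels followed each member most closely over the 12 libraries were found by Pearson's r of log2 CPM among 15594 others, as a description without a test, since differences between lines dominate such values. For FTH1 they were PMEPA1 (0.994) and B4GALT1 (0.994), and for SLC40A1 LONRF2 (0.995) and SLC30A3 (0.995). SLC11A2 was nearest to CHEK2 (0.990), NCOA4 to AP2M1 (0.984), IREB2 to TESC (0.975) and FTL to NXN (0.974). TFRC and STEAP3, the members with the largest called differences in oxygen response between lines, had the weakest nearest neighbours, C5orf34 for TFRC (0.879) and LOX for STEAP3 (0.912). No other iron gene of the 10 was among the nearest 2 of these members.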

How the data were processed

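The authors deposited, for each gene and library, a count of reads and an RPKM value. Per the labels and the study's methods, reads of strand-specific poly(A)+ libraries were aligned with TopHat2 2.0.13 to GRCh37/hg19, filtered on mapping quality and counted over exons with HTSeq 0.6.1 in reverse-stranded mode. The deposited RPKM equals the count per kilobase and of summed counts up to a constant; levels are printed after rescaling by TMM. Here the counts went into edgeR 4.0.16 (R 4.3.3; two-sided quasi-likelihood F tests, Benjamini-Hochberg adjustment over all genes tested), using the 4 libraries of a line for the hypoxia effect and all 12 for differences between lines. Standard errors were derived from the F statistic.

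Members and lists were chosen with earlier results of these data known. From the lists, the 4 called genes with the largest change per line and direction (mean of at least 100 counts, no overlap) and any called alike in all lines are named, as are the 2 genes nearest to each member by correlation; the neighbours of ACO1 and a leukocyte marker list are not reported here. Fits were tested on simulated data. Alternatives were DESeq2 1.42.0, RLE factors, library size scaling, no filter, limma 3.58.1 on log2(RPKM + 1) and log2(RPKM + 0.1), a joint fit, a replicate block and leaving out each library. Hairpins and motifs were searched in GENCODE v44 and RefSeq sequence.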

Additional observations from a re-analysis of the deposited data

Results flagged for a closer look

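The hypoxia effect differed between lines by the interaction test for the genes given here (adjusted p under 0.1 with edgeR). Each is given with the pair of lines that differed most, as the log2 effect in the first line minus that in the second. Pairs with too few counts in a group were left out, such as those of RKO for CP (5 counts in normoxia) and SLC40A1 (0). Values rest on 2 libraries per group, and no explanation was tested.

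Among the 10 iron genes, TFRC differed by 1.69 between RKO and H460, STEAP3 by -2.02 between RKO and A549, FTH1 by -0.93 between A549 and H460, FTL by 0.68 between RKO and A549, NCOA4 by -0.64 between RKO and H460, and IREB2 by -0.86 between RKO and H460.

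The other iron metabolism genes were examined here only where named above, a choice made by their hypoxia effect in these same data. Genes outside that choice are not covered, although some were called in opposite directions. STEAP2 had log2 fold changes of 0.79 in RKO and -1.86 in H460, and IBA57 of -0.68 in RKO and 1.24 in H460. Among those examined, FAM132B (3.60), SLC48A1 (2.82), HMOX1 (2.58), MFI2 (1.71) and FDX1L (1.57) were higher in RKO than in H460. SLC25A37 was lower (-1.99). RKO minus A549 was -1.03 for NUBPL and -0.78 for GLRX3. A549 minus H460 was 1.95 for FECH, 0.98 for SMAD1 and 0.84 for CYBRD1, and -1.50 for EPAS1 and -1.15 for SLC22A17.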

How the results depend on the processing

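Over the 9 iron genes tested (without TF, and without SLC40A1 wherever RKO enters), 1148 of the recomputed log2 values kept their direction and call, 43 lost a call, 39 gained one and 33 changed sign, and every change of sign was in a value that was not called. The causes were not tested. Of the values that changed sign, NCOA4 in RKO (-0.05) was 0.034 with library size scaling, 0.041 with limma at either pseudocount and without a filter, 0.012 in the joint fit and between -0.22 and 0.14 with a library left out. ACO1 in RKO (0.06) ran from -0.042 to 0.18 with a library left out. FTH1 in A549 (0.05) was -0.035 with library size scaling, -0.038 with limma, and -0.032 to 0.13 with a library left out. SLC11A2 in H460 (0.21) was -0.14 with library size scaling and with limma at a pseudocount of 0.1, and -0.13 with limma at 1. FTL in H460 (-0.02) was 0.016 with DESeq2 and RLE factors and -0.059 to 0.028 with a library left out. For RKO minus H460, SLC11A2 (0.06) ran from -0.040 to 0.14 with a library left out, and ACO1 (-0.37) was 0.020 with library size scaling and 0.031 and 0.022 with limma at 1 and 0.1. For A549 minus H460, library size scaling and limma gave 0.024 for FTL (-0.24), and for ACO1 (-0.17) they gave 0.10, with 0.11 for limma at 1. TFRC in normoxia ran from -0.49 to 0.13 for RKO minus A549 and from -0.50 to 0.12 for A549 minus H460 with a library left out.

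With a library left out, the iron genes called higher in RKO numbered 0 to 1 and lower 0 to 1, those called lower in A549 0 to 1, and those called higher in H460 2 to 5 (5 without H460 hypoxia replicate 2, which adds IREB2 and ACO1). Limma at a pseudocount of 1, with or without the filter, called 0 higher in A549. Differences between lines ran from 1 to 3 for RKO and A549, 3 to 5 for RKO and H460, and 2 to 4 for A549 and H460. Limma called 5 for RKO and A549 and, at a pseudocount of 1, 4 for A549 and H460.

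For the 92 other genes, RKO lower was 9 with limma without a filter. A549 higher was 7 with DESeq2, 5 without a filter, 8 in the joint fit, 1 with library size scaling and with limma at 1 or 0.1, 0 with limma without a filter, and 1 to 7 with a library left out, and A549 lower was 1 with DESeq2 and in the joint fit and 0 to 8 with a library left out. H460 higher was 9 with limma under each setting, and H460 lower 38 with library size scaling and with limma at 0.1.

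The labels give replicates a number but no shared origin, and 2 pairs per line cannot show that a number marks one. With the replicate number as a block, the iron genes called different numbered 5 for RKO against A549, 8 for RKO against H460 and 6 for A549 against H460, the A549 lists had 8 higher and 3 lower, and A549 overall had 1189 higher and 723 lower genes. Deviations of same-numbered libraries correlated at 0.340 in RKO, 0.344 in A549 and 0.113 in H460.

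Over all genes, A549 calls (316 higher, 65 lower) were 608 and 263 with DESeq2, 587 and 213 without a filter, 957 and 440 in the joint fit, 151 and 41 with library size scaling, 106 and 38 with limma at 1, 131 higher with limma at 0.1, 0 and 0 with limma without a filter, and 1083 and 752 without A549 hypoxia replicate 1. H460 calls (3467 higher, 3837 lower) were 2075 and 5758 with library size scaling, and limma called 1603 to 2015 higher. RKO lower (1930) was 1124 with limma without a filter. RKO and A549 differed in 2270 genes, in 4200 with the block and in 1047 without RKO normoxia replicate 1, and A549 and H460 in 5607, and in 3553 without H460 hypoxia replicate 1. Median standard errors (0.184 for RKO, 0.223 for A549, 0.114 for H460, log2) limit what 2 libraries per group can show.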
